A study of Nannospalax ehrenbergi and Mus musculus with 14 samples.

Results

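The miR-378 family was followed here in muscle and tumor tissue of the blind mole rat *Spalax* and of the mouse. Its members were all microRNA names made of miR-378 and a letter, with or without an arm, in both deposited tables. This gave 5 of 1326 names, namely miR-378a-3p, miR-378a-5p, miR-378b, miR-378c and miR-378d, and no pair of them had identical values. By the labels, small RNA was sequenced in 14 libraries from 4 *Spalax* and 3 mice. Every animal had received a single injection of the carcinogen 3-methylcholanthrene (3MCA) under the skin of the neck. Tumor tissue was taken on the injected side (IS), and tissue of the opposite, uninjected side (UIS) of the same animals is labelled as muscle. The *Spalax* animals spalax_600 and spalax_976, both female, bore granulomas and were sampled 14 and 16 months after 3MCA. The *Spalax* animals spalax_2240, female, and spalax_2230, male, bore fibrosarcomas and were sampled after 18 and 30 months. The male C57BL/6 mice mouse_512, mouse_1023 and mouse_1019, aged 3 to 4 months, bore fibrosarcomas and were sampled after 11, 12 and 14 weeks. *Spalax* were wild-caught animals whose age could only be estimated. Each group therefore had 2 libraries in *Spalax* and 3 in the mouse, and no untreated animal is part of the comparison. A mouse UIS library whose column is named M1018H, which matches no animal of the labels, was used as an unnumbered replicate and was not paired. The labelled UIS library of mouse_1019 has no column under its number, and whether M1018H is that library is not stated.

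MicroRNAs are short RNAs that lower the output of messenger RNAs with matching sites. The gene of miR-378a lies in an intron of Ppargc1b, on the same strand. Ppargc1b encodes a coactivator that raises mitochondrial and oxidative gene expression. miR-378a-3p is the more abundant arm of the hairpin and is known for repressing genes of fatty acid and mitochondrial metabolism. miR-378a-5p is the opposite arm, known for acting on regulators of energy metabolism. The family is abundant in skeletal muscle, where it rises as myoblasts differentiate, and in brown fat. miR-378b, miR-378c and miR-378d are named after separate hairpins with near-identical mature sequences.

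The hairpins of miR-378b, miR-378c and miR-378d are shown to let the reader see how much sequence these names share. All positions and letters are of the mouse build GRCm38 with the GENCODE M21 annotation. Capitals mark the longest stretch common to the hairpins of miR-378b and miR-378c, 19 bases long, and its closest match in miR-378d. The Mir378b hairpin is at chr11:88352773-88352864 on the plus strand, within an intron of Msi2 but on the opposite strand. The Mir378c hairpin is at chr14:46954830-46954928 on the minus strand, within an intron of Samd4, again opposite to the gene. The Mir378d hairpin is at chr10:126710282-126710391 on the minus strand and overlaps no other annotated gene. The sequences are written 5′ to 3′ with the DNA letters of the annotation.
Mir378b: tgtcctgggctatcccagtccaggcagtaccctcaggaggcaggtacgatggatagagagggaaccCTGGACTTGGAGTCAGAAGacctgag
Mir378c: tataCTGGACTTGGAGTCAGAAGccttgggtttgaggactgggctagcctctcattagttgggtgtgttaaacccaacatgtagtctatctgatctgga
Mir378d: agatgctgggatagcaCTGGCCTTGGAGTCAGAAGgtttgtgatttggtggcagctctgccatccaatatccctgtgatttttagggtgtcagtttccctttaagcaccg
In Mir378d, 1 base of the stretch differs, written A5C, with positions counted from 1 at the 5′ end of the capitals. The stretch sits near the 3′ end of the Mir378b hairpin, at bases 67 to 85 of 92. In Mir378c and Mir378d it sits near the 5′ end, at bases 5 to 23 of 99 and 17 to 35 of 110. With so much shared sequence, reads of one member may have been counted under another name, so the members are not independent measurements. *Spalax* reads were counted under mouse names, and the *Spalax* sequences are not used here.

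In the uninjected muscle, miR-378a-3p was among the most abundant names of every library. It ranked 4th to 6th of 1326 by reads and took 2.82% to 5.47% of all reads on microRNAs. At the IS it ranked 12th in mouse_512, 13th in spalax_2230 and 24th to 43rd in the other 5 libraries. The whole family took 3.36% to 6.61% of reads at the UIS and 0.451% to 3.44% at the IS. miR-378a-3p made up most of it, followed in every UIS library by miR-378c and then miR-378d. miR-378a-5p and miR-378b came last, overlapping in *Spalax*, while in the mouse UIS libraries miR-378a-5p was above miR-378b. A deposited value, called a normalized count below, is the number of reads divided by a size factor of the library. Libraries held between 2034574 and 13982842 reads. The lowest count of any member in any library was 29 reads, for miR-378b at the IS of spalax_2240.

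In granuloma, miR-378a-3p had 895264 and 552490 normalized counts at the UIS of spalax_600 and spalax_976, and 17753 and 32250 at the IS. In *Spalax* fibrosarcoma it had 614081 and 727215 normalized counts at the UIS of spalax_2240 and spalax_2230, and 25890 and 91927 at the IS. In the mouse it had 786072, 757193 and 689782 normalized counts at the UIS of mouse_1023 and mouse_512 and of the unnumbered library. At the mouse IS it had 12668, 22385 and 115655 normalized counts in mouse_1019, mouse_1023 and mouse_512. The IS and UIS values did not overlap in any condition. Relative to their group means, the IS values were the more scattered. Non-overlap was not counted over all microRNAs tested, so here and below it is not shown to be particular to the family. In bulk tissue, fewer cells of a type and less RNA per cell cannot be told apart.

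**Figure D1:**
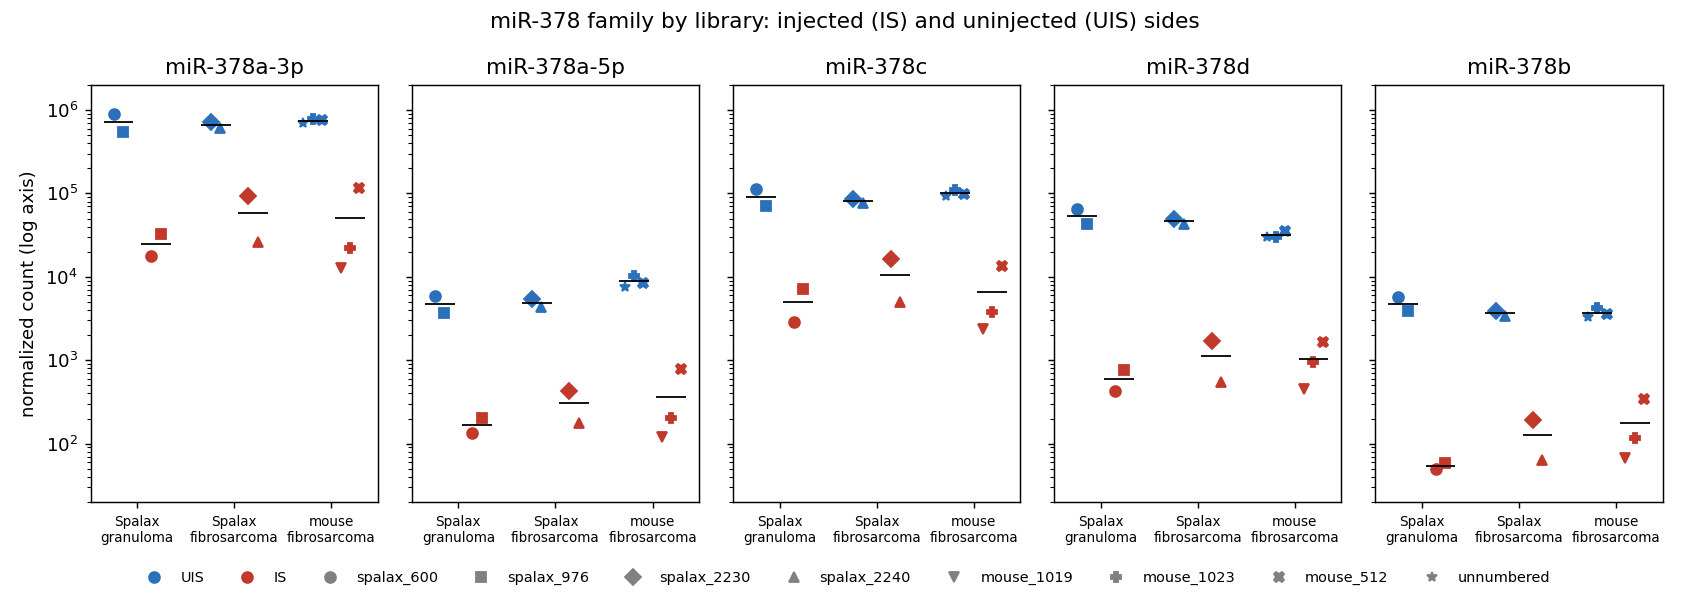
Normalized count of each family member on a log axis, by condition, with uninjected sides in blue, injected sides in red, marker shapes for animals and a line at each group mean (n = 2 per *Spalax* group and 3 per mouse group). Mouse values come from a table with its own normalization. For every member the red points lie below the blue points of the same condition, and within the injected sides spalax_2230 and mouse_512 are the highest of their groups.

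miR-378a-3p fell at the IS in all 3 conditions. The group means were 25002 ± 10251 against 723877 ± 242378 normalized counts in granuloma (SD, n = 2 each). They were 58908 ± 46696 against 670648 ± 79998 in *Spalax* fibrosarcoma (SD, n = 2 each), and 50236 ± 56862 against 744349 ± 49413 in mouse fibrosarcoma (SD, n = 3 each). On the log2 scale of the normalized count plus 1, the change was -4.88 in granuloma (SE 0.60, limma adjusted p = 0.000820). It was -3.78 in *Spalax* fibrosarcoma (SE 0.60, limma adjusted p = 0.00301) and -4.54 in mouse fibrosarcoma (SE 0.76, limma adjusted p = 0.00362). The size of the fall differed between animals: the UIS value was 50.4 and 17.1 times the IS value in spalax_600 and spalax_976, 23.7 and 7.91 times in spalax_2240 and spalax_2230, and 35.1 and 6.55 times in mouse_1023 and mouse_512. Single IS libraries moved the fitted change. Without spalax_2230 at the IS the *Spalax* fibrosarcoma change was -4.69, and without spalax_2240 at the IS it was -2.86. Without mouse_512 at the IS the mouse change was -5.46, and without mouse_1019 at the IS it was -3.87. The mouse changes kept an adjusted p under the threshold of 0.05. Each of the *Spalax* fits left a single library in that group, so only its effect size is given.

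The other arm, miR-378a-5p, had 3678 to 5851 normalized counts in the 4 *Spalax* UIS libraries and 134 to 432 in the 4 *Spalax* IS libraries. In the mouse it had 7623 to 10256 at the UIS and 120 to 777 at the IS, so the sides again did not overlap. Its log2 change was -4.80 in granuloma (SE 0.54), -4.13 in *Spalax* fibrosarcoma (SE 0.54) and -5.03 in the mouse (SE 0.67), with limma adjusted p of 0.000639, 0.00136 and 0.00201.

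miR-378d and miR-378b showed the largest changes of the family in both *Spalax* conditions. miR-378d had 64237 and 42652 normalized counts at the UIS of spalax_600 and spalax_976 and 423 and 755 at their IS. Its log2 change was -6.53 in granuloma (SE 0.58, limma adjusted p = 0.000277), -5.58 in *Spalax* fibrosarcoma (SE 0.58, 0.000719) and -5.15 in the mouse (SE 0.49, 0.000581). In *Spalax* fibrosarcoma miR-378d had 43167 and 49464 normalized counts at the UIS of spalax_2240 and spalax_2230, and 551 and 1700 at the IS. In the mouse it had 29991 to 35803 at the UIS and 452, 956 and 1664 at the IS of mouse_1019, mouse_1023 and mouse_512. Its lowest UIS library was thus above its highest IS library in each condition. miR-378b, the least abundant hairpin name, had 3376 to 5711 normalized counts in the *Spalax* UIS libraries and 49.9 to 191 in the IS libraries, and 3315 to 4273 against 67.5 to 341 in the mouse. Its log2 change was -6.42 in granuloma (SE 0.57), -5.04 in *Spalax* fibrosarcoma (SE 0.57) and -4.72 in the mouse (SE 0.60), with limma adjusted p of 0.000277, 0.000869 and 0.00162.

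miR-378c, the most abundant member after miR-378a-3p, had the smallest change of the family in each condition. It had 70446 to 112195 normalized counts in the *Spalax* UIS libraries and 2893, 7216, 4934 and 16154 at the IS of spalax_600, spalax_976, spalax_2240 and spalax_2230. In the mouse it had 93533 to 110247 at the UIS and 2356, 3738 and 13462 at the IS of mouse_1019, mouse_1023 and mouse_512. Its log2 change was -4.28 in granuloma (SE 0.65), -3.19 in *Spalax* fibrosarcoma (SE 0.65) and -4.35 in the mouse (SE 0.62), with limma adjusted p of 0.00186, 0.00813 and 0.00231. The *Spalax* fibrosarcoma call was the only one of the 15 that some alternatives lost. It was lost without the UIS of spalax_2230 (change -3.10) and without that of spalax_2240 (-3.27), where a single library of that group remained.

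All 5 members thus passed the test as lower at the IS in each of the 3 conditions. Of all microRNAs tested, 22.8% were called lower in granuloma (102 of 447), 22.1% in *Spalax* fibrosarcoma (99 of 447) and 25.6% in the mouse tumors (140 of 547). The median log2 change was -4.88, -4.13 and -4.72 over the family, beside 0.13, -0.23 and 0.21 over all microRNAs tested. Ranked from the lowest log2 change, the members stood between 10th and 30th of 447 in granuloma, 12th and 44th of 447 in *Spalax* fibrosarcoma, and 13th and 24th of 547 in the mouse. The IS and UIS libraries differed in their scaling, and the size of the falls depended on it. Scaled to total reads instead of the deposited size factors, miR-378a-3p changed by -3.03 in granuloma (adjusted p = 0.00366), -2.09 in *Spalax* fibrosarcoma (0.0221) and -2.15 in the mouse (0.0305). With that scaling miR-378c in *Spalax* fibrosarcoma changed by -1.50 and no longer passed (adjusted p = 0.0898). It also moved the median of all microRNAs to 2.02, 1.44 and 2.76, and the share of higher microRNAs among the calls from 52.8% to 85.1%, from 40.7% to 83.9% and from 55.7% to 93.3%. The animal mouse_512 showed no fall by share of reads, with miR-378a-3p at 2.82% of reads at its UIS and 3.01% at its IS.

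**Figure D2:**
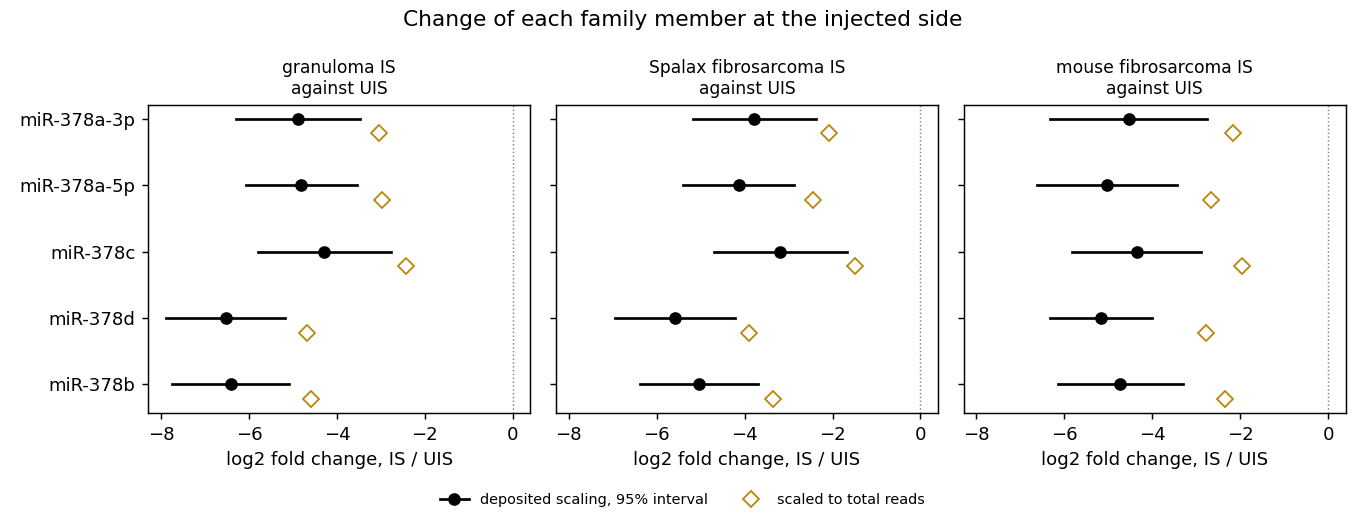
Log2 fold change of each member at the injected side against the uninjected side in the 3 conditions, with limma's 95% intervals for the deposited scaling (black) and the value after scaling to total reads (open diamonds). All points lie below 0, and the diamonds lie closer to 0, for miR-378a-3p at -3.03, -2.09 and -2.15 in place of -4.88, -3.78 and -4.54.

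The share of reads on the family does not depend on a size factor. It was 6.61% and 4.28% at the UIS of spalax_600 and spalax_976 and 0.477% and 0.904% at their IS. It was 5.28% and 6.15% at the UIS of spalax_2240 and spalax_2230 and 0.716% and 2.54% at their IS. In mouse_1023 and mouse_512 it was 5.09% and 3.36% at the UIS and 0.671% and 3.44% at the IS, and mouse_1019 had 0.451% at the IS. In 5 of 6 animals it was lower at the IS, and the mean difference was -3.67 ± 2.08 percentage points (SD, n = 6 pairs). The exact sign-flip test, two-sided, gave p = 0.0625 (0.075 adjusted over the 6 sign-flip tests run, whose smallest possible p is 0.03125), so it did not pass.

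The UIS tissue is labelled as muscle and the IS tissue as tumor, so the striated muscle microRNAs were measured beside the family. This list held miR-1a-3p, miR-133a-3p, miR-133a-5p, miR-133b-3p, miR-206-3p, miR-208b-3p and miR-499-5p. It took 27.7% to 37.3% of reads in the 7 UIS libraries. At the IS it took 0.165% and 0.00959% in spalax_600 and spalax_976, 0.0112% and 0.0132% in spalax_2240 and spalax_2230, and 0.010%, 2.57% and 3.94% in mouse_1019, mouse_1023 and mouse_512. Of its 7 microRNAs, all 7 fell in both *Spalax* comparisons, and in the mouse 3 fell and 4 did not pass, with median log2 changes of -10.75, -12.98 and -6.28. In mouse_512, miR-206-3p, miR-208b-3p and miR-499-5p were higher at the IS than at the UIS. Their normalized counts were 3703 against 1426, 570 against 80.7 and 45.6 against 32.7. At the IS, miR-133a-5p was at 0 reads in 3 libraries, of spalax_2230, spalax_2240 and mouse_1019, and miR-206-3p and miR-208b-3p were at 0 in 1 each, of spalax_976 and spalax_2240. The other 4 were above 0 in every library, with at least 208 reads for miR-133a-3p, 12 for miR-1a-3p, 5 for miR-133b-3p and 1 for miR-499-5p. The family share and the muscle share did not have the same order over the IS libraries. The animal spalax_2230 had a family share of 2.54% with a muscle share of 0.0132%. The animal mouse_1023 had a family share of 0.671% with a muscle share of 2.57%. In other animals the shares went together: mouse_512 was highest in both, at 3.44% and 3.94%, and mouse_1019 was low in both, at 0.451% and 0.010%. The relation of the shares was not tested.

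**Figure D3:**
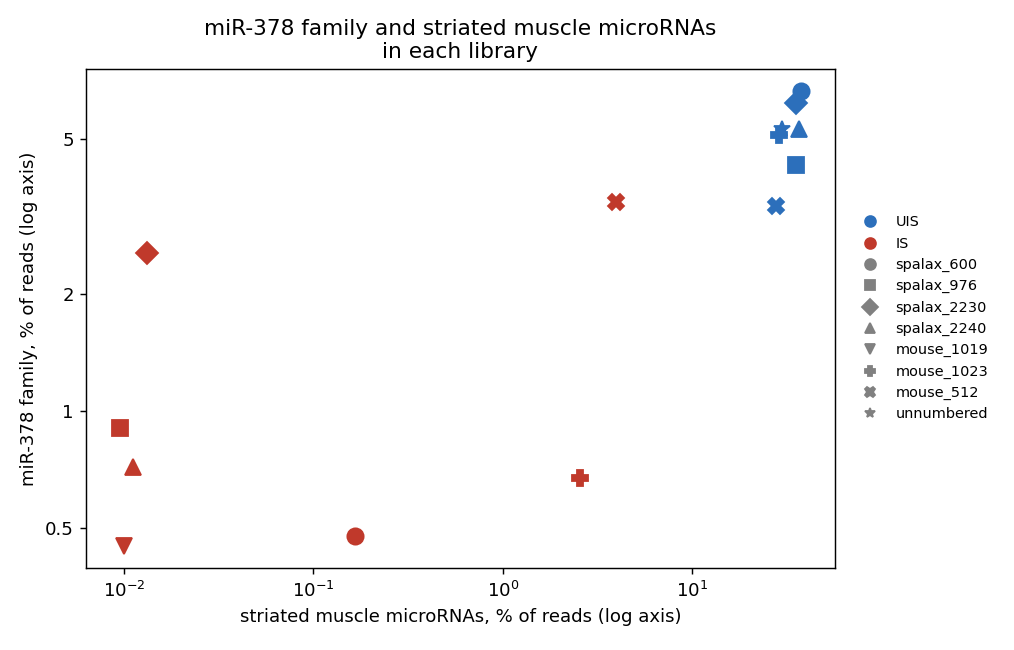
Share of reads on the miR-378 family against the share on striated muscle microRNAs in each of 14 libraries, both on log axes, with uninjected sides in blue, injected sides in red and marker shapes for animals. The uninjected sides lie together at 27.7% to 37.3% muscle reads, while the injected sides spread from 0.00959% to 3.94% muscle reads and from 0.451% to 3.44% family reads.

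miR-378a-3p was also set against single muscle microRNAs of the same library, first miR-1a-3p, which is known from striated muscle cells. The ratio of miR-378a-3p to miR-1a-3p reads was 2.90 to 3.89 in the *Spalax* UIS libraries and 98.1, 1498, 918 and 5447 at the IS of spalax_600, spalax_976, spalax_2240 and spalax_2230. In the mouse it was 4.84 to 6.87 at the UIS and 852, 7.70 and 50.2 at the IS of mouse_1019, mouse_1023 and mouse_512. The ratio was higher at the IS in 6 of 6 pairs, by 6.00 ± 3.77 on the log2 scale (SD, n = 6 pairs), and ranged from 0.67 in mouse_1023 to 10.45 in spalax_2230. The exact sign-flip p was 0.03125, the smallest that 6 pairs allow, and 0.075 after adjustment. The high ratios rest on few miR-1a-3p reads, 12, 16, 30 and 40 at the IS of spalax_2240, spalax_976, spalax_2230 and mouse_1019. Against miR-133a-3p, the most abundant name of the muscle list, miR-378a-3p had the fewer reads in every UIS library, at ratios of 0.105 to 0.157. At the IS that ratio was 2.57, 81.3, 57.1 and 172 in spalax_600, spalax_976, spalax_2240 and spalax_2230, and 41.2, 0.228 and 0.902 in mouse_1019, mouse_1023 and mouse_512. It was thus higher at the IS in each pair, but stayed below 1 in mouse_1023 and mouse_512.

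Read shares of other cell type lists were also taken, and the part of these cell types in the family's change was not tested. A share sums its list, so calls of single names are given for 4 of the lists. Calls are in the order granuloma, *Spalax* fibrosarcoma and mouse. Of all microRNAs tested, 25.5%, 15.2% and 32.2% rose and 22.8%, 22.1% and 25.6% fell. The fibroblast list (5 of 5 names in the tables) took 0.231% to 1.00% of reads at the UIS and 3.04% to 11.1% at the IS. Of its 5 names, 5, 0 and 5 rose, and 0 fell in any condition. Among these names, miR-199a-3p and miR-199b-3p have identical values and are not separate measurements. The leukocyte list (6 of 8 names) took 0.0715% to 0.144% at the UIS and 0.398% to 2.53% at the IS. Of the 6, 4, 4 and 2 rose, and miR-150-5p fell in granuloma (log2 change -2.05, limma adjusted p = 0.0154). The red-cell list (5 of 5 names) took 1.46% to 18.0% at the UIS, where mouse_512 was highest, and 0.267% to 3.32% at the IS. In each condition 2 of these names fell, miR-486a-5p and miR-486b-5p, which have identical values and are known from red cells and muscle. The other 3, miR-451a, miR-144-3p and miR-144-5p, did not pass in any condition. miR-486a-5p reached 2448168 reads in a library, and miR-451a at most 65748. The endothelium list (2 of 4 names) took 0.323% to 1.10% at the UIS and 0.343% to 1.64% at the IS. Its 2 names, miR-126a-3p and miR-126a-5p, fell in each condition, although these shares overlapped. The epithelium list took at most 0.00638% of reads, the liver marker miR-122-5p at most 0.000552% and the neuron list at most 1.76%, at the IS of spalax_2240. None of the fibroblast, leukocyte, red-cell or endothelium markers in the tables was at 0 in any library. Of the others, miR-122-5p, miR-124-3p and miR-200a-3p were at 0 in 2, 3 and 2 libraries.

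The members did not keep the same proportions on both sides. miR-378d reads were 6.80% to 7.72% of miR-378a-3p reads in the *Spalax* UIS libraries and 2.39%, 2.34%, 2.14% and 1.85% at the IS of spalax_600, spalax_976, spalax_2240 and spalax_2230. In the mouse they were 3.86% to 4.73% at the UIS and 3.57%, 4.27% and 1.44% at the IS of mouse_1019, mouse_1023 and mouse_512. The 4 *Spalax* animals and mouse_512 had lower proportions at the IS, and mouse_1023 had a slightly higher one. miR-378b reads were 0.539% to 0.697% of miR-378a-3p reads in the *Spalax* UIS libraries and 0.185% to 0.288% at the IS. In the mouse they were 0.472% to 0.544% at the UIS and 0.535%, 0.523% and 0.296% at the IS of mouse_1019, mouse_1023 and mouse_512. miR-378c reads moved the other way in *Spalax*, from 11.9% to 12.8% of miR-378a-3p reads at the UIS to 16.3% to 22.4% at the IS. In the mouse miR-378c was at 12.9% to 14.0% at the UIS and at 18.6%, 16.7% and 11.6% at the IS of mouse_1019, mouse_1023 and mouse_512.

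Over the 6 pairs, the log2 ratio to miR-378a-3p was lower at the IS by 1.41 ± 0.77 for miR-378d (mean difference -1.41, SD, n = 6 pairs, lower in 5 of 6, exact sign-flip p = 0.0625). For miR-378b the mean difference was -1.05 ± 0.63 (SD, n = 6 pairs, lower in 6 of 6, exact sign-flip p = 0.03125). For miR-378c it was 0.41 ± 0.34 (SD, n = 6 pairs, higher in 5 of 6, exact sign-flip p = 0.0625). All 3 had an adjusted p of 0.075, so none passed, and these ratio tests were added after the values had been seen. The ratio of the arms, miR-378a-3p to miR-378a-5p, was 135 to 153 in the *Spalax* UIS libraries and 132 to 213 at the IS, so the sides overlapped. In the mouse it was 76.6 to 90.5 at the UIS and 105, 111 and 149 at the IS of mouse_1019, mouse_1023 and mouse_512. The mean log2 difference in the arm ratio was 0.30 ± 0.39 (SD, n = 6 pairs), higher at the IS in 5 of 6 animals, with an exact sign-flip p of 0.156 and the same value after adjustment.

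**Figure D4:**
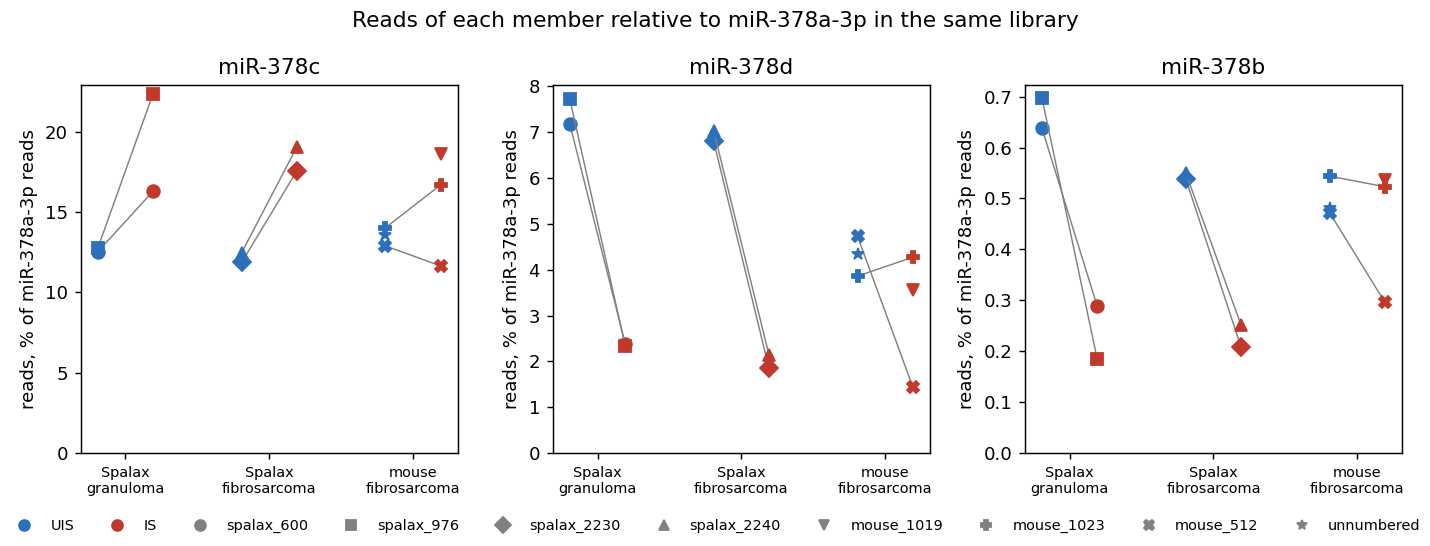
Reads of miR-378c, miR-378d and miR-378b as a percentage of miR-378a-3p reads in the same library, with grey lines joining the sides of an animal, uninjected sides in blue and injected sides in red. In *Spalax* the miR-378d percentage goes from 6.80 to 7.72 down to 1.85 to 2.39 and the miR-378c percentage goes from 11.9 to 12.8 up to 16.3 to 22.4, while the 3 mice differ from each other at the injected side.

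Granuloma and *Spalax* fibrosarcoma were compared directly to ask whether the benign and the malignant tumor differ in the family. The change of miR-378a-3p in granuloma less that in fibrosarcoma was -1.10 on the log2 scale (95% interval -3.09 to 0.89, limma adjusted p = 0.556). None of the 5 members was called, beside 3.80% of all microRNAs (17 of 447). Between the injected sides, miR-378a-3p in granuloma less fibrosarcoma was -1.03 (95% interval -2.43 to 0.38, limma adjusted p = 0.314), and again 0 of 5 members were called, beside 18.8% of all microRNAs (84 of 447). This comparison depended on spalax_2240, the shallowest library: without its IS, miR-378a-3p was at -1.94 and miR-378b at -1.80. Without the IS of spalax_2230, by contrast, the miR-378a-3p difference was -0.11. Each of these fits leaves a single fibrosarcoma library at the IS, so only the effect sizes are given.

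The uninjected sides of the granuloma and fibrosarcoma animals were close in every member. For miR-378a-3p the difference was 0.07 (95% interval -1.33 to 1.48, limma adjusted p = 1), and the members ranged from -0.06 for miR-378a-5p to 0.37 for miR-378b. Limma called 0.00% of 447 microRNAs here, with 5 at an unadjusted p under 0.05, and edgeR and DESeq2 also called 0, with 7 and 10 at an unadjusted p under 0.05. The intervals leave room for differences of more than 2-fold in either direction, except for miR-378b, whose lower bound was -0.97. Their width comes from a spread shared with the IS libraries, not from the uninjected sides alone.

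Uninjected *Spalax* and mouse muscle were compared within the table that held both species. In it miR-378a-3p had 552490 to 895264 normalized counts in the 4 *Spalax* libraries and 593030 and 614631 in mouse_1023 and mouse_512, so the species overlapped. The log2 difference was 0.18 (95% interval -1.60 to 1.97, limma adjusted p = 0.885). This fit also held the IS libraries, so the intervals and calls here rest in part on the spread between tumors. miR-378d differed most, with 42652 to 64237 normalized counts in *Spalax* and 22902 and 29062 in the mice, a log2 difference of 0.93 (95% interval -0.36 to 2.22, limma adjusted p = 0.236). miR-378a-5p went the other way, with 3678 to 5851 in *Spalax* and 6926 and 7737 in the mice, a log2 difference of -0.63 (95% interval -2.15 to 0.89, limma adjusted p = 0.516). None of the 5 members was called, beside 39.7% of all microRNAs (241 of 607). Species and sequence differences under the mouse names cannot be told apart. The change in *Spalax* fibrosarcoma less that in mouse fibrosarcoma was 0.69 for miR-378a-3p (95% interval -2.10 to 3.48, limma adjusted p = 0.727). For this contrast, added after the data had been seen, 0 of 5 members were called, beside 26.0% of all microRNAs (158 of 607). The contrasts of *Spalax* fibrosarcoma with granuloma and with the mouse share the *Spalax* fibrosarcoma libraries.

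Other microRNAs with known roles in energy metabolism and brown fat were followed as a list of 16 names, of which 15 were tested. miR-696 was not tested and had at most 1 read in a library. In granuloma 4 of the 15 rose, 7 fell and 4 did not pass, with a median log2 change of -0.50. In *Spalax* fibrosarcoma 3 rose, 7 fell and 5 did not pass, with a median of -0.19, and in the mouse 1 rose, 8 fell and 6 did not pass, with a median of -1.61. Of all microRNAs tested, 25.5%, 15.2% and 32.2% rose in these comparisons, in the same order, beside the 22.8%, 22.1% and 25.6% that fell. miR-193b-3p and miR-365-3p, which share a cluster that promotes brown fat differentiation, fell in all 3 conditions. In the same order of conditions, the log2 changes were -2.96, -2.54 and -3.27 for miR-193b-3p, and -1.48, -1.61 and -2.12 for miR-365-3p. miR-22-3p, abundant in muscle and heart, fell by 2.93, 2.67 and 3.00 on the log2 scale. miR-455-5p, from a locus linked to brown fat, went the other way in *Spalax*. It rose by 4.07 in granuloma and 3.80 in *Spalax* fibrosarcoma, and its value in the mouse was 0.92 (limma adjusted p = 0.215). The other arm, miR-455-3p, rose by 2.77 in granuloma (limma adjusted p = 0.0220), was at 0.47 in *Spalax* fibrosarcoma (limma adjusted p = 0.666) and changed by -2.69 in the mouse (limma adjusted p = 0.0110), where it fell.

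The names whose pattern was most like that of miR-378a-3p were its own family. Likeness was the smaller of the Pearson correlations of log2(normalized count + 1) over 8 *Spalax* and over 6 mouse libraries, for 402 names, as a description, since the libraries share a large difference between sides and the members share sequence. miR-378c came first at 0.997, then miR-378a-5p at 0.995, miR-378b at 0.992 and miR-378d at 0.976. The next 5 names were miR-149-5p at 0.950, miR-486a-3p at 0.946, miR-26a-2-3p at 0.938, miR-30a-5p at 0.937 and miR-486b-3p at 0.935. miR-149-5p, which is on the metabolism list, had 8264 to 12542 normalized counts in the *Spalax* UIS libraries and 1091 to 4058 at the IS, with log2 changes of -2.70, -2.01 and -3.27. miR-30a-5p had 213489 to 295622 normalized counts in the *Spalax* UIS libraries and 20203 to 56252 at the IS, with log2 changes of -3.31, -2.55 and -4.11. miR-486a-3p, the less abundant arm of a microRNA of red cells and muscle, had log2 changes of -5.47, -5.41 and -7.03.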

How the data were processed

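Small RNA libraries (TruSeq small RNA kit) were sequenced on a single lane. The authors trimmed adaptors, mapped the reads with mirDeep and deposited, for each species, a signal for each microRNA name in each library, which is its reads after division by a size factor. The submitters' processing notes name TopHat 1.4.1, HTSeq, DESeq and the build GRCm38 without saying for which files, so the build of the microRNA mapping is not stated. Whole reads were recovered for 100% of the values (tolerance 0.01). The *Spalax* table also holds 5 mouse libraries. Shares are of reads summed over all names, with list names of identical values counted once. A floor of 3 reads is 2.1e-05% to 0.00015% of a library and covers counting error only, since reads have no molecular identifiers, while the intervals printed are from limma and rest on the spread between libraries.

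The members and lists were chosen with earlier results of these data known. Members were all miR-378 names. The other microRNAs named come from the muscle, metabolism and cell type lists and from the 5 names outside the family most like miR-378a-3p. The lists are given by counts or shares, with values for some of their members. Limma was fitted to log2(value + 1) over microRNAs that reached 10 in 2 or more *Spalax* (3 or more mouse) libraries, with a trended spread and Benjamini-Hochberg adjustment over all of them. The 8 *Spalax* libraries shared a fit, and the mouse table was fitted alone because it was normalized separately. Species were compared within the *Spalax* table, in a fit that held its IS and UIS libraries. Ratios and shares were compared within animals by exact sign-flip tests, two-sided. p-values rest on 2 or 3 animals a group, and a fit without a *Spalax* library leaves a single library in that group. Alternatives were total scaling, a pseudocount of 0.1, no filter, other size factors, edgeR's quasi-likelihood test with TMM, DESeq2, fits of the libraries compared alone, identical names once, a replicate block and leaving out each library.

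The animal numbers of the labels pair the sides. The deviations of paired libraries correlated at 0.093 in granuloma, 0.0041 in *Spalax* fibrosarcoma, and -0.11 and 0.12 in mouse_1023 and mouse_512. Libraries of a group differed by at least 327 chi-square units per degree of freedom, so all were kept. Hairpins were read from GENCODE M21. Tools were DESeq2 1.42.0, edgeR 4.0.16 and limma 3.58.1 in R 4.3.3, with scipy 1.17.1 in Python 3.11.15.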

Additional observations from a re-analysis of the deposited data

How the results depend on the processing

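Of 210 results for single members under the alternatives of the IS against UIS comparisons, 207 kept their call, 3 lost it (all miR-378c in *Spalax* fibrosarcoma) and 0 reversed. Leaving out a library gave 128 to 174 calls in place of 216 in granuloma, 76 to 155 in place of 167 in *Spalax* fibrosarcoma and 189 to 289 in place of 316 in the mouse. With the animals as a replicate block miR-378a-3p changed by -4.88, -3.78 and -3.92, and the block changed no call of a member. It lowered the mouse count of falls from 140 to 86, in the paired libraries only. For the difference between granuloma and *Spalax* fibrosarcoma, 17 calls became 32 with total scaling, 0 with a pseudocount of 0.1, 0 with no filter, 61 with DESeq2, 5 with the replicate block and 0 to 35 with a library left out. The IS comparison went from 84 calls to 4 with these libraries alone and to 31 to 87 with a library left out, where miR-378a-3p ranged from -1.94 to -0.11 and miR-378d from -1.59 to 0.036, higher only without spalax_2230. At the UIS, total scaling reversed miR-378a-3p to -0.11, miR-378c to -0.056 and miR-378d to -0.0054. With a library left out miR-378a-3p ranged there from -0.27 to 0.42, miR-378a-5p from -0.40 to 0.27, miR-378c from -0.21 to 0.47 and miR-378d from -0.12 to 0.48. The species difference at the UIS had 161 to 217 calls in place of 241, and miR-378c ranged from -0.10, without spalax_600, to 0.23. The difference between the fibrosarcoma changes had 67 calls with edgeR in place of 158 and 77 to 186 with a library left out. There miR-378a-3p was -0.054 with total scaling and -0.22 to 1.65 with a library left out, miR-378b was -1.16 to 0.43, and miR-378d -1.31 to 0.31. Leaving out an animal gave mean differences of 5.10 to 7.06 for the ratio to miR-1a-3p and -1.25 to -0.88 for the miR-378b ratio, at an exact p of 0.0625, the smallest 5 pairs allow. With the muscle list left out of the total, the family share differed by a mean of -6.31 points (exact p = 0.03125, not among the 6 adjusted tests). That list holds far more of the UIS than of the IS reads, so leaving it out raises the UIS shares by construction. For the others the cause was not tested. Depth limits miR-378b and miR-378a-5p at the IS, where counts fell to 29 and 81 reads, and the ratio to miR-1a-3p, whose counts fell to 12.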
